A study of Mus musculus with 36 samples.

Results

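The cytosolic ribosomal protein genes were examined in the livers of 36 female mice, using every probe set on the array whose platform annotation gave 1 gene symbol of the Rpl or Rps series, or Rplp0, Rplp1, Rplp2 or Rpsa. Pseudogenes and the S6 kinase genes were left out. The rule found 46 genes on 100 probe sets, out of 18193 gene symbols on 45037 probe sets. Of these genes 24 encode large subunit and 22 small subunit proteins, and 43 of them (22 large, 21 small) were bright enough on average to be tested. The other 3, Rpl3l, Rpl39l and Rps16, were too dim: Rpl3l, a copy of Rpl3 used in striated muscle, lay between 5.34 and 89.9 signal units, Rpl39l, a copy of Rpl39 used in testis, between 2.79 and 127, and the single qualifying probe set for Rps16 between 1.19 and 6.36. A further 110 probe sets named a ribosomal protein gene together with another symbol and did not qualify. For 28 family symbols these were the only probe sets, so the 46 genes are part of the family and not the whole of it.

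Ribosomal proteins assemble with ribosomal RNA into the small subunit, which decodes mRNA, and the large subunit, which forms the peptide bonds. Their mRNAs are among the most abundant in a liver cell and are made in near equal amounts. Most begin with a run of C and T bases directly at the start of transcription, the 5′ terminal oligopyrimidine tract, through which mTOR signalling and the protein Larp1 set how actively they are translated. Arrays measure the amount of an mRNA and not its translation.

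The mice came from 9 groups of 4. All were 6 to 8 weeks old and had fasted for 4 to 5 h. The mutants were heterozygotes for Pax3Sp2H (a transcription factor of the early neural tube), Lrp6Cd (a Wnt co-receptor), Apobtm1Unc (apolipoprotein B) and Vangl2Lp (a planar polarity protein), and mice of the ct stock. C57BL/6J wild types (B6) were the control for both Pax3Sp2H and Apobtm1Unc, so these comparisons share 4 arrays. Wild types from within the Lrp6Cd and Vangl2Lp stocks (Cd and Lp wild type) were the controls of those lines. The ct mice came from a closed, randomly bred colony taken to be ct/ct throughout, and their control was the inbred CBA/CaJ strain (CBA), so mutation and stock cannot be told apart in that comparison. The labels call Pax3Sp2H and Lrp6Cd responsive to dietary folic acid and Apobtm1Unc, ct and Vangl2Lp resistant. Whole pieces of liver were used, in which fewer cells of a type and less RNA per cell cannot be told apart. The 9 hepatocyte markers were high on all arrays, with Alb between 34620 and 92454 signal units. Values are MAS5 signals, analysed as log2(signal + 23.104), and each probe set is compared only with itself.

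The array of CBA wild type replicate 4 stood apart in RNA quality: its 3′ to 5′ signal ratios were 52.5 for Gapdh and 31.0 for actin. Array 3 of the ct group was next, with ratios of 1.72 and 3.71, and also carried the highest macrophage marker sum, 111495 against 16780 to 43801 on the other arrays. The other 34 arrays had Gapdh ratios of 0.729 to 0.956 and actin ratios of 1.63 to 2.93. Both arrays belong to the comparison of ct with CBA, which is therefore given with and without them.

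The start-site sequences of the genes that differed between groups are shown first, because the run of C and T at the start is the feature the family is known to share. Each line holds the 15 bases before and the 15 bases from the start site of a RefSeq transcript on GRCm38.p6, 5′ to 3′ on the coding strand. Capitals mark the longest run of C and T that touches the bases from 5 before to 10 after the start. Rps24 and Rpl19, whose values followed the rest of the family most closely, are added. RefSeq holds another start site for each, not shown here, with runs of 2 for Rps24 and 5 for Rpl19.

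Rpl14, chr9:120571502-120571531, plus strand: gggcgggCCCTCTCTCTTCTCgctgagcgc
Rps6, chr4:86857353-86857382, minus strand: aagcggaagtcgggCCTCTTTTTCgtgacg
Rps10, chr17:27635230-27635259, minus strand: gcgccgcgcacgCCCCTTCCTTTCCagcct
Rps24, chr14:24490663-24490692, plus strand: cccgcgctggggTCCTTCCTTgcgcgttga
Rpl19, chr11:98026909-98026938, plus strand: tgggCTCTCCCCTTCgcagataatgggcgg
Rplp0, chr5:115559452-115559481, plus strand: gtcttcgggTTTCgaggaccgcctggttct
Rps3, chr7:99483695-99483724, minus strand: cttgcaagggTCgccgcgctgcgcggcgtc
Rpl37, chr15:5116598-5116627, plus strand: agtttcctgggcggaagCTTatccacagga

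Rpl14 has a run of 14 pyrimidines here and Rps6 a run of 10, while Rplp0 has 4, Rpl37 has 3 and Rps3 has 2. The run depends on the start site that RefSeq holds, and whether these starts are used in liver was not tested. A short run here therefore does not show that an mRNA lacks the tract. RefSeq held 48 start sites for 40 of the 46 genes, and 24 of these had a run of at least 6 C or T bases in that window, against 24.4% of all 32851 start sites in the table. The promoter windows of RefSeq, which reach further upstream, were searched on both strands for 3 short motifs. CCGGAA, the core bound by ETS family factors such as Gabpa, was present in 26 of 48 (54.2%) against 14.9% of all windows. GGGCGG, the GC box bound by Sp1, was in 24 of 48 against 35.7%. A long form of the YY1 motif was in 0 of 48 against 0.633%. These counts describe the letters in the windows. A site was not measured.

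The brightest probe sets belonged to 3 small or peripheral proteins: Rps29 had a median signal of 45831 (32814 to 80884 over the arrays), Rpl38 of 36996 (26156 to 65424) and Rps28 of 35537 (24362 to 58632). The dimmest tested were Rps25 with a median of 150 (55.5 to 280), Rpl12 with 154 (90.9 to 231) and Rpl14 with 199 (132 to 881). A low signal here belongs to the probe set. Within groups the genes varied slightly less than the tested genes at large: the median SD of a family gene was 0.30 on the log2 scale, against 0.36 over all 13188 tested genes. It was 0.26 against 0.30 without the 2 arrays above. Of the 43 family genes 34 had a mean log2 value above 13, and the SDs of other genes as bright were not compared. Rpl4, a core protein of the large subunit, varied least (SD 0.12) and Rps4l, an S4-like copy of Rps4x, varied most (SD 0.77). Without the 2 arrays Rps27 varied most (SD 0.65, against 0.57 for Rps4l).

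Across the 5 mutant lines the family moved little, and all 5 called differences lay in the ct mice. At an adjusted p below 0.05 (limma, Benjamini-Hochberg over all 13188 genes), 0 of 43 genes were called in Pax3Sp2H heterozygotes (0.0% of all genes), 0 in Lrp6Cd (0.0%), 0 in Apobtm1Unc (0.538%) and 0 in Vangl2Lp (0.0303%). In ct against CBA 5 of 43 were called (11.6%), against 6.65% of all genes. Of these 4 were higher (3.4% of all genes) and 1 lower (3.25%). Before adjustment, p was below 0.05 for 1, 0, 0, 0 and 12 family genes in the same order, against 5.32%, 2.09%, 10.9%, 7.07% and 24.1% of all genes. The median standard error of a family gene's difference was 0.21.

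**Figure D1:**
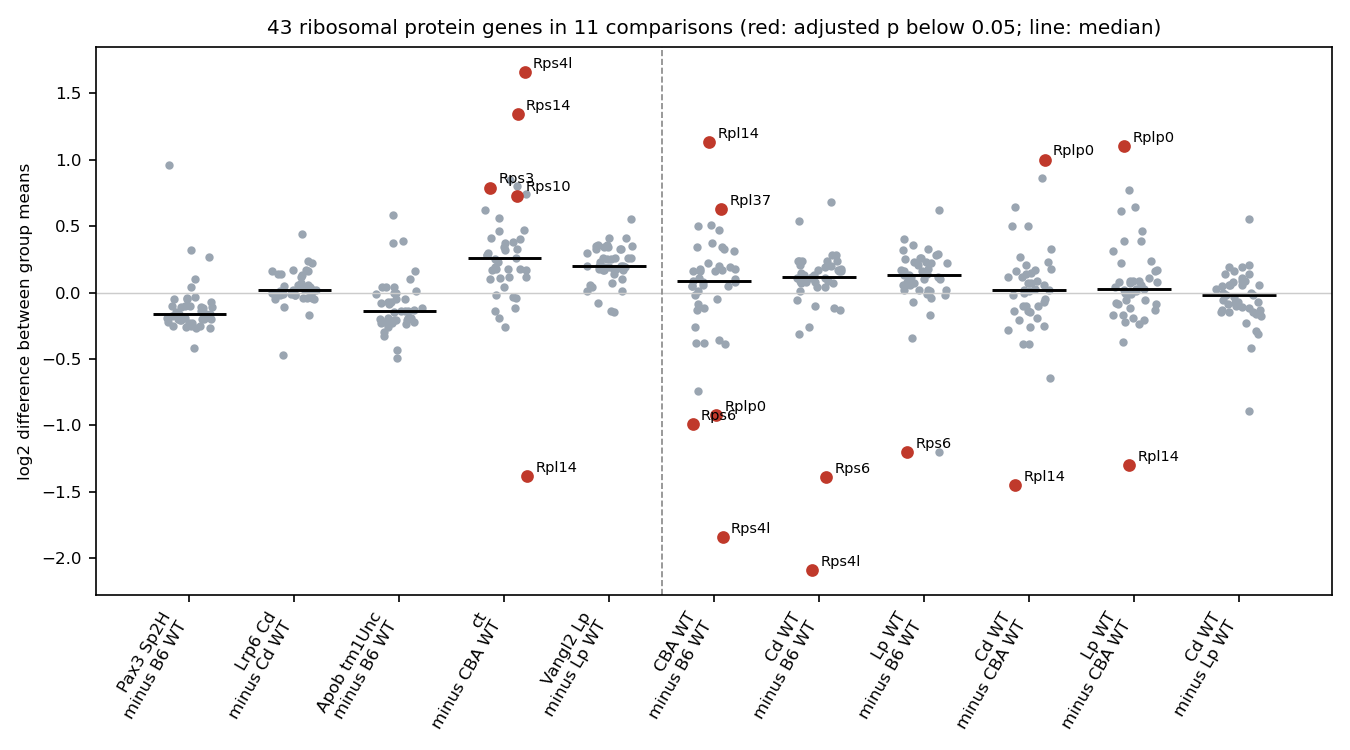
Each point is 1 of 43 ribosomal protein genes, placed by its log2 difference between 2 group means of 4 mice, with the 5 mutant comparisons left of the dashed line and the 6 comparisons of wild type stocks right of it. Named red points passed the adjusted p of 0.05 and black lines are medians. The mutant comparisons hold named points in ct alone, and Rpl14, Rps6, Rps4l and Rplp0 recur on the right.

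In Pax3Sp2H heterozygotes the family sat slightly below B6, without a called gene. Of 43 genes 38 had a negative difference and the median was -0.16, against 0.01 over all tested genes. The family median per array, taken as the deviation of each gene from its mean over all arrays, was -0.29, -0.20, -0.31 and -0.22 in the heterozygotes and -0.14, -0.17, -0.05 and -0.01 in B6, so the groups did not overlap. For 14 genes all 4 heterozygotes were below all 4 B6 mice (32.6%, against 3.18% of all genes lower without overlap): Rpl7, Rpl7a, Rpl10a, Rpl19, Rpl27, Rpl37a, Rpl38, Rplp0, Rps2, Rps4x, Rps14, Rps25, Rps28 and Rps29. For Rpl27a alone all 4 were above (2.2% of all genes). In either direction 15 genes, or 34.9%, were apart, against 5.38% of all genes.

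Rps29, a zinc-binding protein of the small subunit head, measured 35577, 37423, 32814 and 36270 in the Pax3Sp2H mice and 39631, 40405, 45688 and 42268 in B6. All heterozygotes were lower, and the log2 difference was -0.24 ± 0.17 (SE; adjusted p = 0.999). Rps4x, of the small subunit body, measured 21867, 22914, 20888 and 23566 against 24001, 24904, 26907 and 26170. Its groups did not overlap either, with -0.19 ± 0.14 (adjusted p = 0.999). Rps27 had the smallest p of the family in this line, with 657, 762, 379 and 340 against 172, 224, 400 and 246. Its groups overlapped, and its difference of 0.96 ± 0.44 did not pass (adjusted p = 0.929). Rpl27a differed by 0.27 ± 0.21 (adjusted p = 0.999).

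This shift was shared by other bright genes and depended on the array scaling. Of the 594 other tested genes with a mean log2 value above 13, 23.7% were also lower in Pax3Sp2H without overlap, with a median difference of -0.23, while the 34 family genes as bright had a median of -0.17. The summed hepatocyte marker signal was 301286 to 386612 in the heterozygotes and 418465 to 474031 in B6, again without overlap. Heterozygote 3 had the lowest sum and the lowest family median, and was high in stellate cell markers (39556 against 19221 to 20510 in the other 3), lymphocyte markers (6242 against 2685 to 3492) and markers of dividing cells (1487 against 301 to 566). The part of these in the family's values was not tested. After quantile normalization the family median was 0.03 and 27 of 43 differences were positive. Then 1 family gene was lower and 2 were higher without overlap, against 2.84% and 1.64% of all genes. After median centring the family median was -0.20, with 9 genes lower and 0 higher without overlap, against 3.62% and 1.55% of all genes. The sign of the family's difference thus changed with the scaling.

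**Figure D2:**
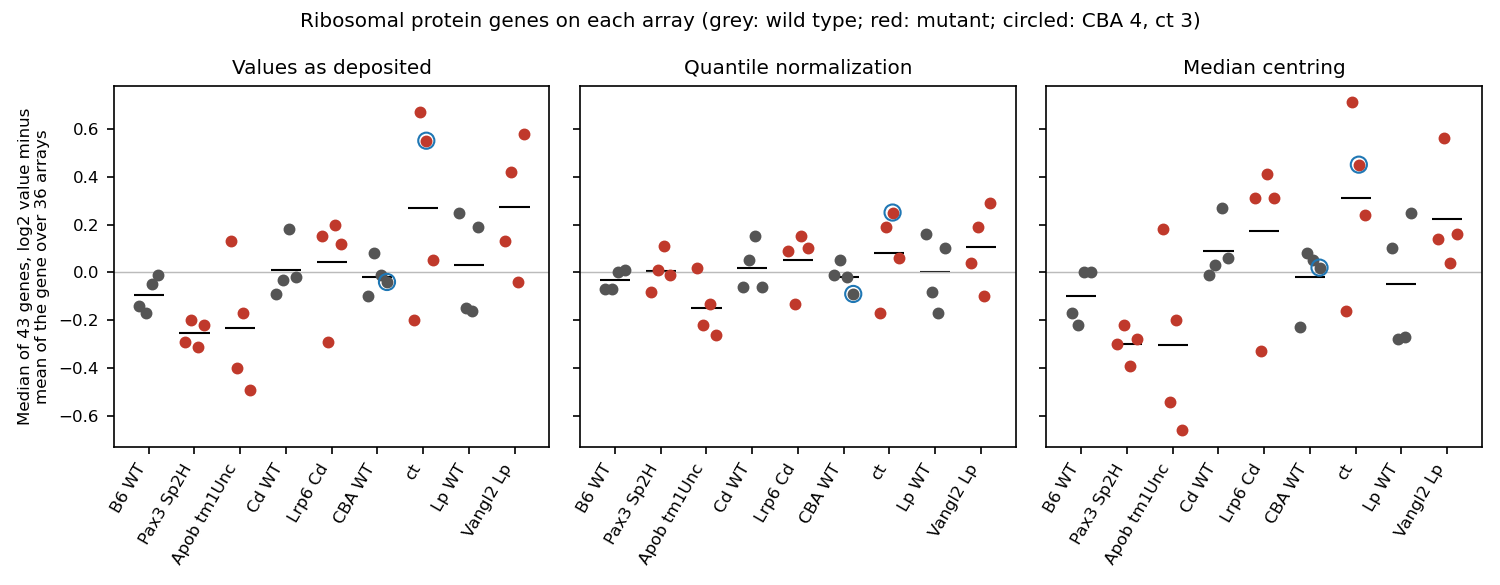
Each point is 1 mouse, placed by the median over 43 ribosomal protein genes of the log2 value minus that gene's mean over 36 arrays, under the deposited values, quantile normalization and median centring; short lines are group means. As deposited, Pax3Sp2H mice lie at -0.31 to -0.20 and B6 at -0.17 to -0.01, and after quantile normalization they overlap; as deposited, ct mice spread most, from -0.20 to 0.67.

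The Lrp6Cd heterozygotes resembled their wild types in the family median, 0.02, and each of the 43 differences lay between -0.47 and 0.44. The lowest was Rps4l (-0.47 ± 0.50, adjusted p = 1.0) and the highest Rpl39, a small protein at the exit tunnel (0.44 ± 0.35, adjusted p = 1.0). Rpl39 measured 634, 770, 389 and 498 in heterozygotes and 717, 556, 288 and 222 in wild types, which overlap. Rps6 differed by 0.22 ± 0.20 and Rpl27a by -0.17 ± 0.21 (adjusted p = 1.0 for both). No gene separated the groups (3.07% of all genes). Heterozygote 2 had a family median of -0.29, below the other 3 at 0.12 to 0.20.

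In Apobtm1Unc heterozygotes 33 of 43 differences were negative, with a median of -0.14 against 0.02 over all genes. It remained negative under quantile normalization (-0.11) and median centring (-0.20). The mice did not agree among themselves: family medians were 0.13, -0.40, -0.17 and -0.49, a range that holds all 4 B6 values, and no gene separated the groups (9.39% of all genes). After quantile normalization 5 genes were lower and 1 higher without overlap, against 4.92% and 4.64% of all genes. Rpl38 measured 39098, 26156, 30915 and 26235 against 35601, 35520, 40743 and 40301 in B6. Heterozygote 1 lay within the B6 range and the other 3 below it, for a difference of -0.33 ± 0.19 (adjusted p = 0.572). Rpl37 went the other way, at 0.39 ± 0.20 (adjusted p = 0.47), as did Rps27 at 0.58 ± 0.44 (adjusted p = 0.705). Rps19 had the largest negative value, -0.49 ± 0.31 (adjusted p = 0.613).

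Vangl2Lp heterozygotes showed the opposite sign. Of 43 differences 40 were positive, with a median of 0.20 against -0.03 over all genes, and it was 0.08 after quantile normalization and 0.24 after median centring. Again no gene separated the groups (5.72% of all genes). The heterozygotes spread widely, with family medians of 0.13, 0.42, -0.04 and 0.58, against 0.25, -0.15, -0.16 and 0.19 in Lp wild types. Rpl10a, of the L1 stalk of the large subunit, had the smallest p. It measured 21308, 27267, 19273 and 32168 in the heterozygotes and 23092, 17457, 15604 and 21796 in the wild types, where mice 2 and 4 were above all wild types and mice 1 and 3 among them. Its difference was 0.35 ± 0.17 (adjusted p = 0.713). Rpl27 followed at 0.34 ± 0.18 (adjusted p = 0.733), and the lowest were Rpl37 at -0.15 ± 0.20 (adjusted p = 0.937) and Rpl14 at -0.14 ± 0.24 (adjusted p = 0.958).

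All 4 heterozygotes were above all Lp wild types in the summed hepatocyte markers, with 478759, 541108, 456890 and 591889 against 389877 to 442587. All 9 markers had a positive difference, with a median of 0.30 and 0 called. The actin ratios of heterozygotes 2 and 4 were 2.46 and 2.93, and that of Lp wild type 4 was 2.81. The 594 other bright genes had a median difference of 0.13 in this line. The part of these in the family's shift was not tested.

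The ct mice carried the 5 calls, and 4 of them were lost without single arrays. Of 43 genes 2, Rps14 and Rpl14, were apart, against 6.92% of all genes. Rps14, of the small subunit platform, measured 35634, 59308, 50001 and 34691 in ct and 29170, 29269, 28879 and 3628 in CBA. All ct mice were above all CBA mice, and CBA 4 was far below the other 3, for a difference of 1.34 ± 0.36 (adjusted p = 0.0220). Without CBA 4 and ct 3 it was 0.52 ± 0.18 (adjusted p = 0.160). The second probe set of Rps14 had 1.32 ± 0.35 (adjusted p = 0.0239) over all arrays, in a fit of all tested probe sets that called 4.52% of them and 6 of the family's 88.

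Rps3, at the mRNA entry of the small subunit, measured 17120, 37107, 33418 and 22167 in ct and 15310, 19375, 18133 and 9859 in CBA. Arrays 2, 3 and 4 of ct were above all CBA mice and ct 1 was among them, giving 0.79 ± 0.22 (adjusted p = 0.0298), and 0.46 ± 0.23 without the 2 arrays (adjusted p = 0.362). The 2 other tested probe sets of Rps3, both dim, gave -0.18 and 0.07.

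Rps10, at the beak of the small subunit, measured 29661, 56000, 58235 and 35281 against 28714, 34439, 32113 and 14098. Its difference of 0.73 ± 0.23 (adjusted p = 0.0441) became 0.29 ± 0.20 without the 2 arrays (adjusted p = 0.569). Rps4l measured 743, 1729, 634 and 1084 against 369, 591, 647 and 37.7, where ct 3 fell within the CBA range. Its difference of 1.66 ± 0.50 (adjusted p = 0.0400) became 1.07 ± 0.43 (adjusted p = 0.231). Leaving out ct 2, ct 3 or CBA 4 singly also left 1 called gene.

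Rpl14, a large subunit protein, kept its call without CBA 4 and ct 3. In a limma fit of the ct and CBA arrays alone it did not (adjusted p = 0.155). On its single-symbol probe set, which is dim, Rpl14 measured 190, 136, 276 and 164 in ct and 441, 437, 428 and 881 in CBA. Every ct mouse was below every CBA mouse. The difference was -1.38 ± 0.24 (adjusted p = 0.000398), a 2.60-fold lower value in ct on the log2(signal + 23.104) scale, and without the 2 arrays -1.31 ± 0.24 (adjusted p = 0.000895). Then it was the single family gene called, against 1.79% of all genes. The F test of differences among the 5 mutant effects called Rpl14 alone in the family (adjusted p = 0.0465, with 2.46% of all genes called), and it was not called without CBA 4, nor after quantile normalization or median centring.

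The family as a whole was higher in ct, with 35 of 43 differences positive and a median of 0.26 against 0.01 over all genes. It was 0.17 after quantile normalization, 0.30 after median centring and 0.21 without the 2 arrays. Family medians were -0.20, 0.67, 0.55 and 0.05 in ct and -0.10, 0.08, -0.01 and -0.04 in CBA, which overlap. The 2 high ct arrays also had the highest hepatocyte marker sums, 679274 and 634569 against 386568 and 465975 in the other ct mice, and actin ratios of 2.65 and 3.71. Of the 12 tested macrophage markers 6 were called higher in ct and 0 without the 2 arrays, and of 12 lymphocyte markers 3 and 0. The share of all genes called higher in ct was 3.4%, and 1.79% were called in either direction without the 2 arrays. Against B6, 6 of the 12 macrophage markers were called lower in CBA (4.02% of all genes). Without the 2 arrays 7 were lower (6.1% of all genes called in either direction). The part of these in the family's values was not tested.

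**Figure D3:**
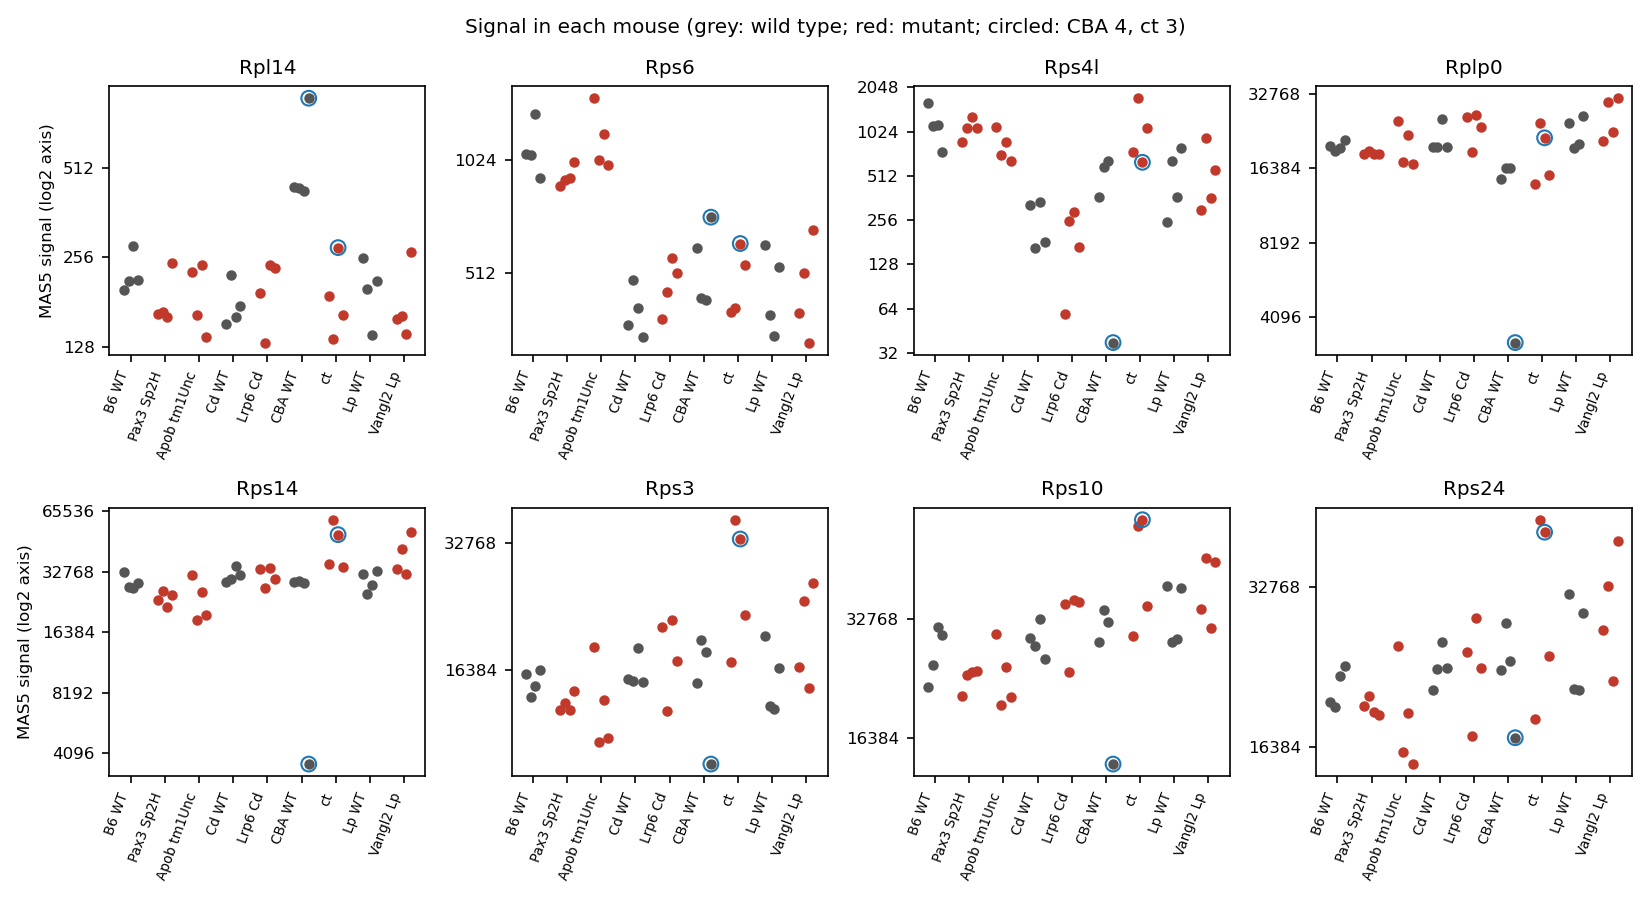
MAS5 signal on a log2 axis of 8 ribosomal protein genes in each of 36 mice, 4 per group; grey points are wild types, red points mutants, and blue circles mark CBA 4 and ct 3. On the probe sets standing for the genes, Rpl14 is high in CBA alone and Rps6 is high in B6, Pax3Sp2H and Apobtm1Unc mice. CBA 4 lies far below for Rps4l, Rplp0 and Rps14 but above for Rpl14.

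Between the wild type stocks differences lay in few genes. An F test over the 4 stocks called 4 of 43 genes (Rps6, Rpl14, Rps4l and Rplp0), against 10.7% of all genes. Against B6, 5 genes were called in CBA (7.73% of all genes), 2 higher (3.71%) and 3 lower (4.02%), with 2 genes in Cd wild types (3.89%) and 1 in Lp wild types (2.08%). Against CBA, 2 were called in Cd (5.07%) and 2 in Lp (4.61%), and 0 between Cd and Lp (2.43%; unadjusted p below 0.05 for 0 of 43). The groups did not overlap for 7 genes between CBA and B6 (12.7% of all genes), 8 between Cd and B6 (17.3%), 3 between Lp and B6 (12.1%), 4 between Cd and CBA (12.0%), 2 between Lp and CBA (9.14%) and 1 between Cd and Lp (13.9%). After median centring the count for Cd against B6 was 12 higher and 2 lower, against 12.2% and 5.94% of all genes. Family medians in these comparisons lay between -0.02 and 0.13. Quantile normalization turned CBA minus B6 from 0.09 to -0.03 and Cd minus Lp from -0.02 to 0.01. Median centring turned Lp minus CBA from 0.03 to -0.05 and Cd minus Lp to 0.14. In these 2 comparisons median centring moved the medians of all genes alike, from 0.05 to -0.03 and from -0.04 to 0.12.

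Rps6, the small subunit protein phosphorylated by the S6 kinases downstream of mTOR, followed the stock. Its single-symbol probe set measured 1063, 1056, 1359 and 919 in B6, 596, 438, 433 and 722 in CBA, 373, 490, 414 and 346 in Cd wild types and 608, 395, 347 and 530 in Lp wild types. Every B6 mouse was above every mouse of the other 3 stocks, which overlapped each other. Against B6 the value fell by 0.99 in CBA (SE 0.20, adjusted p = 0.00151), by 1.39 in Cd (SE 0.20, adjusted p = 1.71e-05, 2.61-fold lower) and by 1.20 in Lp (SE 0.20, adjusted p = 0.000348).

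Across all groups the 12 mice of B6, Pax3Sp2H and Apobtm1Unc lay between 877 and 1500 (median 1020), and the 24 others between 334 and 722 (median 446). These 12 mice include the 4 B6 arrays that were compared. The other probe sets did not share this pattern: 8 more that name Rps6 together with the pseudogene Rps6-ps4 gave Cd minus B6 differences of 0.01 to 0.66, CBA minus B6 of -0.33 to 0.89 and Lp minus B6 of -0.20 to 0.83. Of these 1 was called, and it was higher in CBA than in B6 (0.89 ± 0.25, adjusted p = 0.0238), opposite to the single-symbol probe set. The lower values in those stocks are thus a measurement of 1 probe set, and whether its target sequence differs between stocks was not tested.

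Among the family's 88 tested probe sets the widest stock difference lay on a second probe set of Rps9, a small subunit protein that helps keep decoding accurate. It measured 8596, 11206, 13178 and 10439 in B6 and 21277, 13409, 13264 and 15454 in Lp wild types, but 452, 730, 696 and 640 in CBA and 418, 560, 870 and 701 in Cd wild types. B6 and Lp were each far above CBA and Cd, with no overlap. In the fit of all tested probe sets CBA minus B6 was -4.06 ± 0.27 (adjusted p = 5.91e-13, 16.7-fold lower) and Cd minus B6 was -4.07 ± 0.27 (adjusted p = 5.14e-13, 16.8-fold lower).

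Lp was above CBA by 4.60 ± 0.27 (adjusted p = 2.82e-14) and Cd minus Lp was -4.61 ± 0.27 (adjusted p = 2.32e-14). That fit called 7 of the family's 88 probe sets between CBA and B6 (6.29% of all probe sets), 3 between Cd and B6 (3.82%), 3 between Lp and CBA (3.21%) and 1 between Cd and Lp (2.44%). Mutants sat with their controls on this probe set: ct ran from 259 to 673, Lrp6Cd from 475 to 976, Pax3Sp2H from 11168 to 14584, Apobtm1Unc from 9221 to 23172 and Vangl2Lp from 12283 to 21876. The brightest probe set of Rps9, which stood for the gene, gave -0.38 ± 0.25 for CBA minus B6 (adjusted p = 0.361) and 0.13 ± 0.25 for Cd minus B6 (adjusted p = 0.886). The stock difference is thus a measurement of 1 of 3 tested probe sets, and whether its target sequence differs between stocks was not tested.

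Rps4l measured 1607, 1111, 1131 and 740 in B6 and 327, 166, 341 and 182 in Cd wild types, without overlap. The difference was -2.09 ± 0.50 (adjusted p = 0.00975), the largest among the 43 tested genes, and it passed in each of 18 refits. All refits used the same probe set, the only one for Rps4l. Whether its target sequence differs between stocks was not tested. The Lrp6Cd heterozygotes were as low as their wild types, at 58.7, 253, 290 and 168. CBA, at 369, 591, 647 and 37.7, was below B6 by 1.84 (SE 0.50, adjusted p = 0.0190), but without CBA 4 and ct 3 the difference was -1.05 ± 0.40 (adjusted p = 0.121). Lp wild types, at 248, 649, 368 and 795, overlapped B6, with -1.20 ± 0.50 (adjusted p = 0.264), and passed without those arrays (SE 0.37, adjusted p = 0.0493). Rps4x, the gene that Rps4l resembles, measured 24001, 24904, 26907 and 26170 in B6 and 26695, 28600, 31741 and 34133 in Cd.

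Rpl14 was high in CBA against every other stock on its single-symbol probe set, which is dim. This probe set measured 441, 437, 428 and 881 in CBA, 199, 213, 279 and 215 in B6, 153, 223, 161 and 176 in Cd and 254, 200, 140 and 213 in Lp wild types. CBA did not overlap any of these, and differed by 1.13 ± 0.24 from B6 (adjusted p = 0.00217). Cd was below CBA by 1.45 (SE 0.24, adjusted p = 0.00012) and Lp by 1.30 (SE 0.24, adjusted p = 0.000598). Without CBA 4, the highest of the 36 arrays, and ct 3 the CBA minus B6 difference was 0.89 ± 0.22 (adjusted p = 0.0111).

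Another 5 probe sets name Rpl14 with the pseudogene Rpl14-ps1 and are brighter, with mean signals of 8691 to 17590. Their CBA minus B6 differences ran from -0.50 to 0.95, and 1 of them passed (0.95 ± 0.19, adjusted p = 0.00144). Their ct minus CBA differences ran from -0.49 to 0.42 with 0 called. For Cd minus CBA they ran from -0.54 to 0.89 and for Lp minus CBA from -0.21 to 0.80, again with 0 called. Singly, the values were -0.50, 0.31, 0.49, 0.54 and 0.95 for CBA minus B6. For ct minus CBA they were 0.42, -0.20, -0.24, -0.24 and -0.49. The calls involving CBA on the single-symbol probe set thus recurred on 1 of these probe sets, and for CBA minus B6 alone. For Lp minus B6, 1 of them was called higher (0.75 ± 0.19, adjusted p = 0.0279).

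Rplp0, the central protein of the ribosomal stalk, measured 14906, 16422, 16394 and 3224 in CBA and 20217, 19369, 19886 and 21323 in B6. All CBA mice were below all B6 mice, by 0.92 (SE 0.29, adjusted p = 0.0492), which became -0.34 ± 0.17 without the 2 arrays (adjusted p = 0.276). Cd was above CBA by 1.00 ± 0.29 (adjusted p = 0.0414) and Lp by 1.10 ± 0.29 (adjusted p = 0.0250), and without the 2 arrays by 0.42 ± 0.17 (adjusted p = 0.174) and 0.53 ± 0.17 (adjusted p = 0.0943). Because Rplp0 is widely used to scale quantitative PCR, its values in the other groups are of use: they ran from 18666 to 19253 in Pax3Sp2H, 19031 to 26926 in Lrp6Cd, 17034 to 25540 in Apobtm1Unc, 14219 to 25050 in ct and 21189 to 31570 in Vangl2Lp.

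Rpl37, a zinc-binding large subunit protein, was higher in CBA than in B6 by 0.63 ± 0.20 (adjusted p = 0.0420), with 2749, 5818, 5014 and 4986 against 2762, 2648, 3185 and 2922. CBA 1 lay within the B6 range. The call was lost without CBA 4 and ct 3 (0.58 ± 0.21, adjusted p = 0.0935). Lp wild types, at 5301, 4116, 4291 and 4154, were all above B6 at 0.62 ± 0.20 (adjusted p = 0.0967), which passed without those arrays (SE 0.19, adjusted p = 0.0493). The 3 probe sets that Rpl37 shares with Rpl37rt gave -0.02 to 0.63 for CBA minus B6 and 0.12 to 0.54 for Lp minus B6, with 0 called.

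No further gene passed between Lp wild types and B6. Rps2 was above B6 in every Lp mouse (0.26 ± 0.13, adjusted p = 0.383), and Rps25 differed by -0.34 ± 0.30 (adjusted p = 0.697). Between Cd and Lp wild types the smallest p belonged to Rpl4 (0.19 ± 0.12, adjusted p = 0.533, all Cd above all Lp), Rpl6 (0.21 ± 0.16, adjusted p = 0.628), Rps4l (-0.89 ± 0.50, adjusted p = 0.472) and Rps27l (-0.31 ± 0.21, adjusted p = 0.596).

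CBA 4, the array with the highest 3′ to 5′ ratios, did not lower the family evenly. Against the mean of CBA 1 to 3 its family median was -0.07, but single genes ran from -3.16 to 1.00. Of 43 genes 8 were below -1 (against 19.6% of all genes): Rps4l at -3.16, Rps14 at -3.0, Rplp0 at -2.29, Rps19 at -1.86, Rpl8 at -1.84, Rps9 at -1.51, Rpl37a at -1.40 and Rps10 at -1.17. A further 11 were above 0.5 (against 29.8% of all genes), led by Rpl22 at 1.00, Rpl14 at 0.98 and Rps27l, a copy of Rps27, at 0.86. Neither share was above that of all genes, so this spread was not particular to the family. Of the genes called in comparisons with CBA, Rps4l, Rps14, Rplp0 and Rps10 are among the 8.

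**Figure D4:**
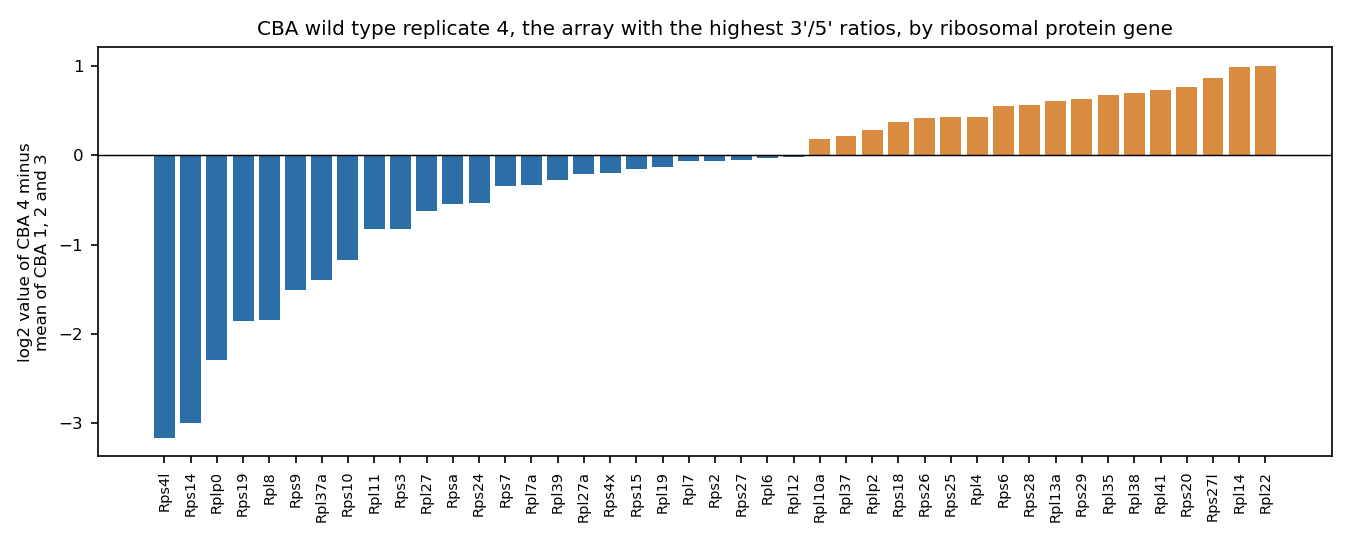
Bars give the log2 value of CBA wild type replicate 4 minus the mean of CBA replicates 1, 2 and 3 for each of 43 ribosomal protein genes, in order of size. The bars run from -3.16 for Rps4l to 1.00 for Rpl22.

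Within groups the family rose and fell together from mouse to mouse. Each gene's deviations from its group means were correlated over the 36 arrays with the mean deviation of the other family genes, as a description. The arrays share their scaling. The median Pearson r was 0.77, from -0.18 to 0.97, against 0.02 for the 13145 other tested genes, and 35 of 43 genes were above 0.5. Without CBA 4 and ct 3 it was 0.91, after quantile normalization 0.62 and after median centring 0.81. The 9 hepatocyte markers, also bright, had a median r of 0.55 with the family, and 6 of them were above 0.5. Their median was 0.66 without those arrays, -0.05 after quantile normalization and 0.62 after median centring. Other genes as bright as the family were not taken as a group here. Rps24 was closest to the rest (0.97), followed by Rpl19 (0.95), Rpsa, Rps15 and Rps3 (0.94 each).

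Rps24 shows the size of this swing. It measured 18490, 43743, 41448 and 24230 in ct and 27176, 32802, 21796 and 39930 in Vangl2Lp heterozygotes. By contrast it measured 19558, 20443, 19070 and 18818 in Pax3Sp2H mice, so the spread within ct and Vangl2Lp was far wider than in Pax3Sp2H.

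Few genes stood outside the common swing. Rpl4 had an r of -0.18, Rpl39 of -0.08, Rpl12 of 0.08, Rps4l of 0.23 and Rps27 of 0.29. For Rpl4 it was -0.58 after quantile normalization and 0.22 after median centring, so its sign changed with the scaling. The probe sets of the other four are dim, with signals of at most 1729 on any array. Rpl4 stayed between 15635 and 18290 in ct, where Rps24 ran from 18490 to 43743. Rps27l, with a signal of 17762, 34749, 28612 and 22288 in ct, followed the swing, while Rps27 did not, at 219, 300, 809 and 421. 

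**Figure D5:**
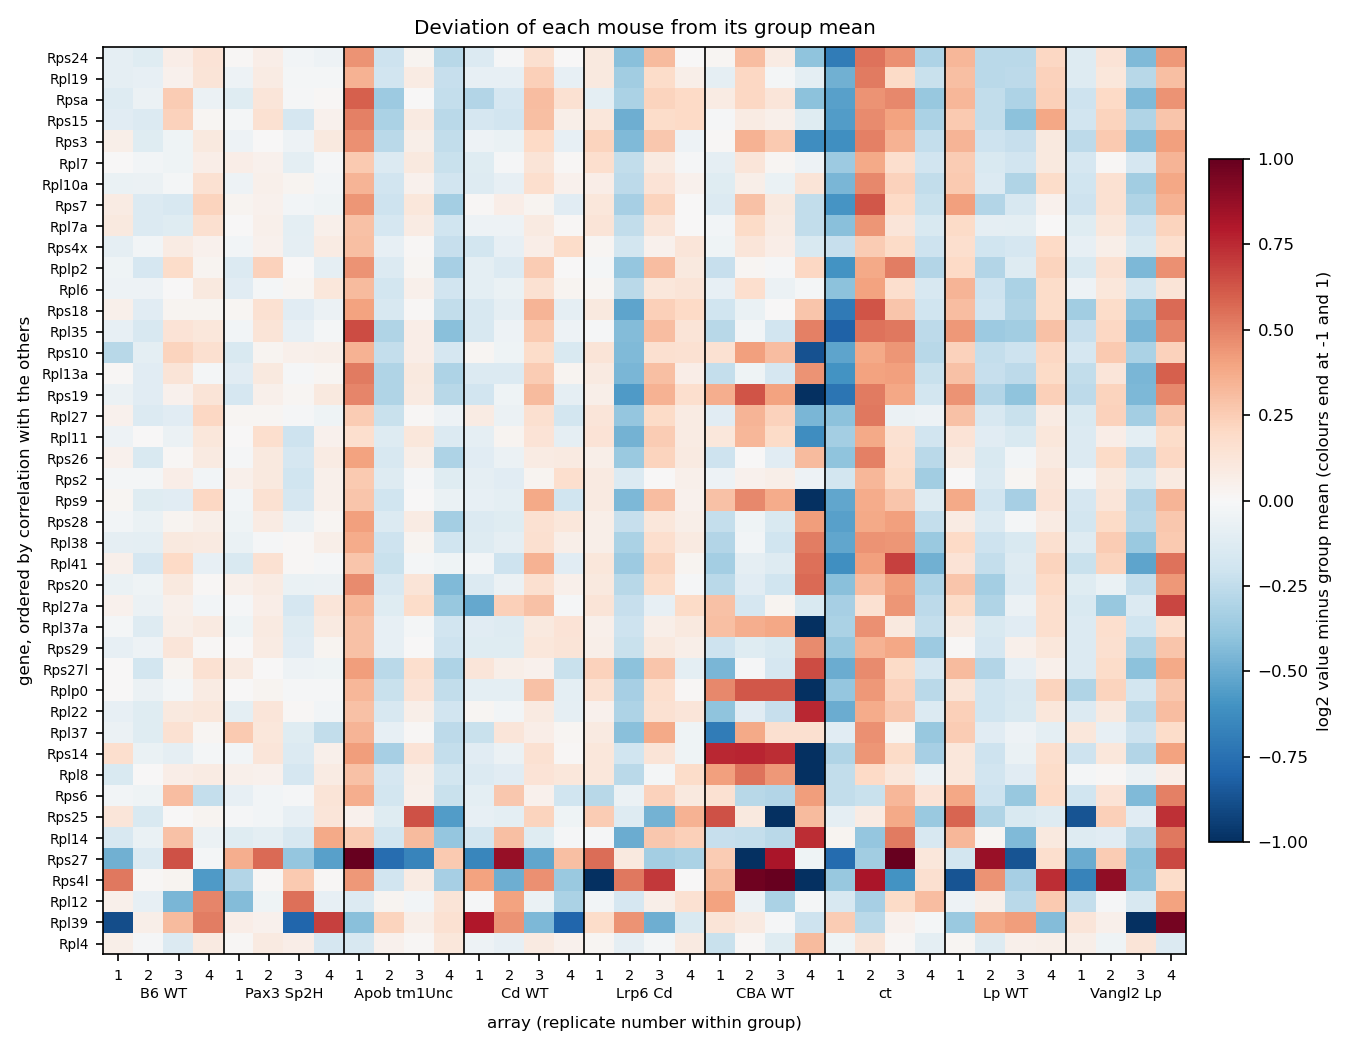
Each cell is the log2 value of 1 ribosomal protein gene on 1 of 36 arrays minus the mean of its group of 4, red above and blue below, with colours ending at -1 and 1; genes are ordered by their correlation with the others. Most rows share the column pattern, for example blue in ct 1 and red in ct 2, while Rpl4, Rpl39, Rpl12, Rps4l and Rps27 at the bottom do not.

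The non-family genes closest to the family's mean deviation were Atp5e (r = 0.95), Nme2 (0.95), Romo1 (0.94), Rps3a1 (0.93) and Atp5o (0.93). Rps3a1 itself encodes a ribosomal protein and falls outside the naming rule, and Atp5e and Atp5o encode subunits of the mitochondrial ATP synthase. The most opposed were Usp9x (-0.92), Nbr1 (-0.91), Rab10 (-0.90), Sec16b (-0.89) and Eea1 (-0.89). After quantile normalization the closest were Pet100, Avpi1, Znhit1, Dnlz and Elob, so the list depends on the scaling.

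Other genes of ribosome production were taken as lists. The 76 mitochondrial ribosomal proteins had a median r of 0.57 with the family, 17 translation factors and related mRNAs with the same 5′ tract 0.45, 40 genes of ribosome assembly and ribosomal RNA synthesis 0.07 and 27 upstream regulators such as Mtor, Larp1 and Myc -0.20. In Pax3Sp2H, Lrp6Cd, Apobtm1Unc and Vangl2Lp against their controls 0 genes of these lists were called by limma. Without CBA 4 and ct 3, arrays of neither group, 2 of the 27 regulators passed in Apobtm1Unc against B6. In that fit the share of all genes called rose from 0.538% to 2.46%. Akt1s1 was higher (0.86 ± 0.18, adjusted p = 0.00539, and 0.104 with all arrays). Max, the partner of Myc, was lower (-1.80 ± 0.47, adjusted p = 0.0317, and 0.0687 with all arrays).

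In ct 6 of 76 mitochondrial ribosomal proteins were called higher, against 3.4% of all genes, led by Mrpl34 (1.02 ± 0.25, adjusted p = 0.0131), Mrps18a (0.92), Mrps7 (0.84) and Mrpl17 (0.82), and 0 without CBA 4 and ct 3. Of the 17 genes of the translation list Eif3k was higher (0.81 ± 0.23, adjusted p = 0.0344) and Btf3 lower (-0.65 ± 0.20, adjusted p = 0.0430), and neither passed without the 2 arrays (adjusted p = 0.395 and 0.334). Of the 27 regulators Sesn1 and Tsc1, both restraints on mTOR, were lower, at -1.25 ± 0.25 (adjusted p = 0.00205) and -0.67 ± 0.21 (adjusted p = 0.0496), and neither passed without the 2 arrays (adjusted p = 0.0574 and 0.306). Of 40 assembly genes 0 were called in ct by limma. The share of all genes called lower in ct was 3.25%.

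Between stocks, Btf3, a chaperone subunit at the ribosome exit, was higher than in B6 in CBA (0.98 ± 0.20, adjusted p = 0.0013) and in Lp wild types (0.77 ± 0.20, adjusted p = 0.0278). Akt1s1, an inhibitory subunit of mTOR complex 1, was higher in Cd wild types than in CBA by 1.82 ± 0.24 (adjusted p = 2.66e-06) and than in B6 by 0.96 ± 0.24 (adjusted p = 0.0156). Both held without the 2 arrays (adjusted p = 2.18e-06 and 0.000351). Against Lp wild types Akt1s1 was higher in Cd by 1.33 ± 0.24 (adjusted p = 0.0005), while Eif4ebp2, a repressor of cap-dependent translation, was lower by 0.75 (SE 0.20, adjusted p = 0.0274). Polr1a, the largest subunit of the polymerase that makes ribosomal RNA, was lower in CBA than in B6 by 1.04 (SE 0.24, adjusted p = 0.00616). Of the mitochondrial list Mrpl35 was lower in CBA than in B6, Cd and Lp (adjusted p = 0.0171, 0.0319 and 0.0447), and Mrpl36 was higher in Lp than in B6 by 0.69 ± 0.16 (adjusted p = 0.0108).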

How the data were processed

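Liver RNA of 36 mice was hybridised to 1 Affymetrix array each. The deposited values are MAS5 signal intensities, per the submitters' processing notes, whose version is not given in the sources used here; every array had a trimmed mean of 500 (2% cut at each end), so arrays were already scaled. Of 45101 probe sets 64 are controls, 34945 have 1 gene symbol, 932 several and 9160 none. Signals were transformed as log2(signal + 23.104), the 20th percentile, so fold changes of dim genes are understated. Probe sets with a mean log2 value above 6.4064, the 40th percentile, were kept, and the brightest stood for its gene, giving 13188 genes. limma 3.58.1 (R 4.3.3, trended variance) fitted 1 mean per group on all arrays; tests were two-sided with Benjamini-Hochberg adjustment within each comparison. The labels call the 4 mice per group biological replicates. Tables and plots used Python 3.11.15, pandas 2.3.3, numpy 2.4.6 and matplotlib 3.10.9.

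Tested on simulated data for ct minus CBA (13188 genes), the fit recovered 62% of 100 genes changed 2-fold and 99% of 100 changed 4-fold, with 12 false calls. Arrays give no counts, and their number limits the precision. The members and gene lists were chosen with earlier results of these data known. Genes named are those called in a comparison (up to 8), otherwise the 2 of smallest p in each direction, the 3 brightest and 3 dimmest, second copies with their partners, list genes called (up to 4), and the 5 genes most alike; several qualifying list genes of the wild type comparisons are not printed. The group of bright genes, the most opposed genes, the second probe set of Rps9, the regulators named in Apobtm1Unc and the values of single arrays were chosen after values were seen. Start-site sequences are from RefSeq, GRCm38.p6; Rps4l had no entry and Rps14 is not shown.

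Alternatives were quantile normalization, median centring, an offset of 64, no filter, single-target probe sets, all probe sets, the replicate number as a block, the arrays of the 2 groups alone, and leaving out arrays. Replicate numbers were shared across groups by number alone.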

Additional observations from a re-analysis of the deposited data

Results flagged for a closer look

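In 9 of 81 groups of 4 values examined, 1 array lay far from the other 3, by its gap to the nearest over the group's range. Among independent groups chance alone does this in about 1 in 20. The groups here share arrays on which the family moves together, and the genes named were called in these same data. The count can therefore not be set against that rate. CBA replicate 4 did so for Rpl14 (signal 881, above), Rplp0 (3224, below) and Rps14 (3628, below). Cd wild type replicate 3 did so for Rplp0 (26073, above) and Rps3 (18554, above). Lrp6Cd heterozygote 2 was low for Rps10 (23991) and for the family median (-0.29). Pax3Sp2H heterozygote 4 was high for Rpl14 (244) and Lp wild type 1 for Rpl37 (5301).

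The differences of Rpl14 between mutant and control were unequal among the 5 lines by limma's F test (adjusted p = 0.0465).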

How the results depend on the processing

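Of 300 alternative values for counts and family medians, 252 kept within their limits, 48 moved and 0 reversed a called value; among values for single called genes 213 kept the call and 76 lost it. The causes were not tested.

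In ct minus CBA the 5 called genes became 3 with no filter, 2 with single-target probe sets, 0 with the arrays of the 2 groups only and 1 without CBA 4 and ct 3; leaving out single arrays gave 1 to 10 (1 without ct 2, ct 3 or CBA 4; 8 to 10 without CBA 1, 2 or 3, and 9 without ct 1). In CBA minus B6 5 became 3 with median centring, no filter and the replicate block, 0 with the 2 groups only and 2 without the pair of arrays; single arrays gave 2 to 6 (2 without B6 1 or CBA 4, 3 without B6 2, 3 or 4). In Lp minus B6 1 became 2 with the 2 groups only and 3 without the pair. In Cd minus CBA 2 became 1 with no filter, with the 2 groups only and without the pair; single arrays gave 1 to 3 (1 without CBA 4 or any Cd array). In Lp minus CBA 2 became 1 with median centring and without the pair and 0 with the 2 groups only; single arrays gave 1 to 3 (1 without CBA 4, Lp 1 or Lp 4). In Cd minus Lp 0 became 1 with all probe sets. The F test among mutant effects fell from 1 to 0 under quantile normalization, median centring, no filter, single-target probe sets, all probe sets, the replicate block and without CBA 4. The share of all genes called moved too. Without the pair it was 1.79% in ct minus CBA (6.65% with all arrays) and 6.1% in CBA minus B6 (7.73%). It was 5.42% in Lp minus B6 (2.08%), 5.27% in Cd minus CBA (5.07%) and 3.41% in Lp minus CBA (4.61%). After median centring it was 6.07% in CBA minus B6 and 3.24% in Lp minus CBA. For the other refits that share is not given here, so those counts alone do not describe the family.

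The family median of Pax3Sp2H minus B6 went from -0.16 to 0.03 with quantile normalization, and that of CBA minus B6 from 0.09 to -0.03, and to -0.04 with single-target probe sets. The labels set mutant and control arrays side by side by number, without naming a shared litter, batch or day. The deviations of same-numbered mice correlated above 0.1 in 4 of 20 pairs (from -0.14 to 0.20), 3 of them among the 4 pairs of ct and CBA; no comparison had all 4, so the numbers were not taken as pairs. With the replicate block Rps10 was no longer called in ct minus CBA (adjusted p = 0.0542), nor Rplp0 and Rpl37 in CBA minus B6 (adjusted p = 0.0545 and 0.0546). The block moved no other count of called genes by over 1.5 times.

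Many probe sets of this family can bind several near-identical transcripts: 69 of 100 carry a suffix that marks this. Most were bright, and MAS5 signals do not show saturation. The 4 mice per group limit what can pass.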
